A study of Mus musculus with 26 samples.

Results

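The 30 genes described here encode the enzymes and carriers that bring pyruvate into the mitochondrion and turn it over in the citrate cycle, together with the enzymes that feed or drain the cycle and with both lactate dehydrogenase subunits. They were taken by symbol from a list of the enzymes of these steps and make up 30 of the 50686 genes in the deposited count table. All 30 passed the filter on low counts and were among the 17286 genes tested, and the lowest count of any of them in any mouse was 104.

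Pyruvate made from glucose or lactate crosses the inner mitochondrial membrane through a carrier and is converted to acetyl-CoA by the pyruvate dehydrogenase complex. The citrate cycle then oxidises the acetyl group and passes the electrons to the respiratory chain, which in brown fat is uncoupled by Ucp1 to give heat. Several steps have a mitochondrial and a cytosolic enzyme made from separate genes, and citrate and malate that leave the mitochondrion serve fat synthesis and the shuttling of reducing equivalents.

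RNA-sequencing counts came from brown adipose tissue (BAT), labelled as supraclavicular, of 26 male C57BL/6J mice of 12 to 16 weeks of age. Mice labelled FAKO carried floxed alleles of Afdn (Mllt4 in the study, encoding the scaffold protein Afadin) and Adiponectin-Cre, which is active in adipocytes of white as well as brown fat, and the control mice were their littermates, with the genotype label WT. All had spent 2 weeks at thermoneutrality (30 °C in the labels, a slightly lower value in the study's methods), and part of each genotype was then moved to 5 °C for 6 h. There were 7 mice of each genotype at 30 °C, and at 5 °C there were 5 controls and 7 FAKO. Total counts ran from 12705969 to 25732258 per mouse, with group medians from 16750654 to 17684274. Within groups, each of the 73 possible pairs of libraries differed beyond the noise of counting.

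Brown adipocyte markers were detected in every mouse, and the log2 level of Ucp1 rose by 4.02 with cold in control mice. Afdn did not differ by label at 30 °C (log2 fold change -0.01, SE 0.08) and differed by -0.33 (SE 0.09) at 5 °C, which did not pass the threshold (edgeR quasi-likelihood test, Benjamini-Hochberg adjusted p = 0.116). At 5 °C all mice labelled FAKO (53.25 to 65.27 CPM) lay below all control mice (67.85 to 79.16 CPM). Of all genes, 1.11% did not overlap in this comparison. The study reported that the rise of Afadin protein with cold was smaller in FAKO mice. By RT-qPCR it found no increase of Mllt4 mRNA behind that rise. In these counts Afdn RNA passed as lower with cold in both genotypes. The log2 fold change was -1.42 (SE 0.09) in control mice and -1.74 (SE 0.08) in mice labelled FAKO. Since Afdn RNA did not pass the threshold between the labels at either temperature, the groups are named by their labels. Counts per exon were not analysed here. The summed level of 12 skeletal muscle markers varied between mice from 3.95 to 8582 CPM (counts scaled to a common library total), within every group, and exceeded 2000 CPM in 6 mice: 1 control mouse at 30 °C, 2 control mice at 5 °C and 3 mice labelled FAKO at 5 °C. Control mouse 7 at 30 °C stood apart from its group, with the highest fibroblast markers of all mice (2695 CPM) and the lowest mitochondrially encoded counts (40780 CPM). In whole tissue, fewer cells of a type and less RNA per cell cannot be told apart.

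Levels of the genes were compared with each other as RPKM, which is CPM divided by the exon length in kilobases. In control mice at 30 °C, Pdha1, the catalytic alpha subunit of pyruvate dehydrogenase, had the highest mean at 373 ± 42.8 RPKM (SD, n = 7). Sucla2, the ADP-forming beta subunit of succinate-CoA ligase, followed at 323 ± 46.8, Ogdh, the first subunit of the oxoglutarate dehydrogenase complex, at 309.9 ± 39.0 and Idh3b, a regulatory subunit of the NAD-dependent isocitrate dehydrogenase, at 294 ± 37.4. Neighbours in this order differed by less than 2 SD. The lowest were the mitochondrial malic enzymes Me2, at 1.37 ± 0.144 RPKM, and Me3, at 5.06 ± 0.584, and the mitochondrial phosphoenolpyruvate carboxykinase Pck2, at 3.97 ± 0.329. The GDP-forming partner of Sucla2, Suclg2, reached 18.2 ± 1.14 RPKM. The spread between mice was largest in control mice at 30 °C, where the median coefficient of variation over the 30 genes was 12.6%, and smallest in control mice at 5 °C, where it was 6.04%, against 7.79% and 10.6% in mice labelled FAKO at 30 °C and 5 °C.

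**Figure D1:**
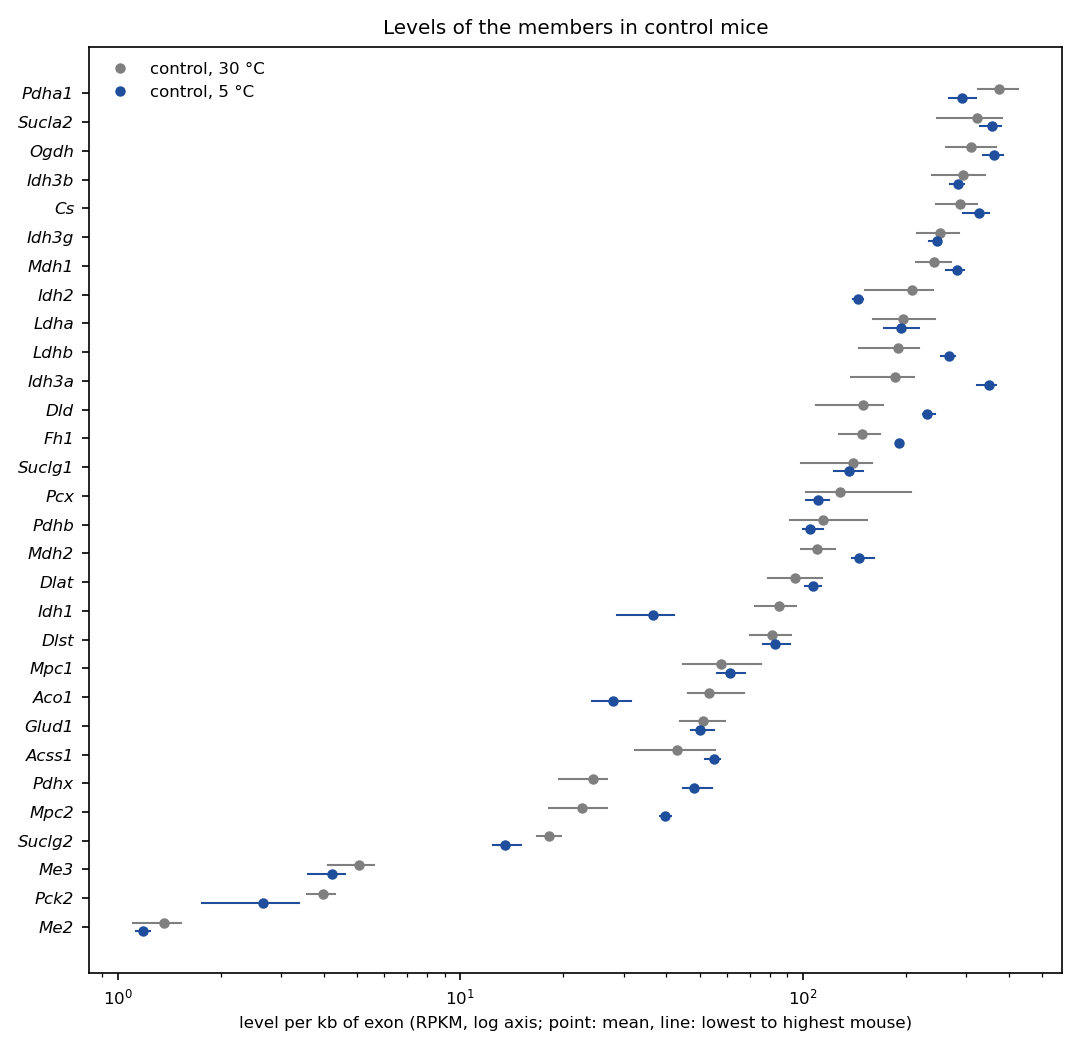
Mean level of each of the 30 genes per kilobase of exon (RPKM, log axis) in control mice at 30 °C (n = 7, grey) and 5 °C (n = 5, blue), with a line from the lowest to the highest mouse. The levels span from 1.37 RPKM for Me2 to 373 RPKM for Pdha1 at 30 °C.

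Promoter sequences are shown for genes with an entry in the RefSeq table: the 3 that rose most and the 2 that fell most with cold in control mice (Pdhx, Mpc2 and Dld, then Idh1 and Aco1), and the 3 with the smallest p for a difference between the cold responses (Pdhb, Mdh1 and Pdha1). Each runs 5′ to 3′ on the strand of the gene, from 150 bases before to 20 bases after the RefSeq start site (GRCm38.p6), and capitals mark the core motif of CREB (TGACG on either strand), a factor through which cyclic AMP acts.
Pdhx (chr2:103073494-103073663, strand -): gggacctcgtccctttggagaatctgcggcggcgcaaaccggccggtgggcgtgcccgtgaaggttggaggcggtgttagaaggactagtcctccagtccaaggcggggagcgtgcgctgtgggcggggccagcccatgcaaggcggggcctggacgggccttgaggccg
Mpc2 (chr1:165461110-165461279, strand +): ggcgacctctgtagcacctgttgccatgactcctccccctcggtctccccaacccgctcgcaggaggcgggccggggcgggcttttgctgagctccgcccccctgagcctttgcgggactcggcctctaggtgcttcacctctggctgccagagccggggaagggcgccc
Dld (chr12:31351452-31351621, strand -): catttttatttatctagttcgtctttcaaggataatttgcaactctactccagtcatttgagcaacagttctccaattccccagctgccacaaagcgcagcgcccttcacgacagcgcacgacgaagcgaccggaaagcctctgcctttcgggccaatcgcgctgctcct
Idh1 (chr1:65186460-65186629, strand -): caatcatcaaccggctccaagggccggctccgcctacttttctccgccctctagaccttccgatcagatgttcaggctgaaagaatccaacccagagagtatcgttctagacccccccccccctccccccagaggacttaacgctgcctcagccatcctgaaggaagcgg
Aco1 (chr4:40143115-40143284, strand +): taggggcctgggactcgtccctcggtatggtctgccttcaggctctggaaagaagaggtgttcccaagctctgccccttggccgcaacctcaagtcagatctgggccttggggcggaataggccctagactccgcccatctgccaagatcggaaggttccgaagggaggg
Pdhb (chr14:8172973-8173142, strand -): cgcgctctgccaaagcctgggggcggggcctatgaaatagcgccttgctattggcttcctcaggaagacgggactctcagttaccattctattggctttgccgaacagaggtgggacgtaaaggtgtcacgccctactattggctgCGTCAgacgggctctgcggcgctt
Mdh1 (chr11:21571915-21572084, strand -): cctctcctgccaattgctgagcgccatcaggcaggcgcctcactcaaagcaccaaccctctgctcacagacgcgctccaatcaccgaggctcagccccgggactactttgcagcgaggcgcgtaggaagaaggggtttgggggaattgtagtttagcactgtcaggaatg
Pdha1 (chrX:160138411-160138580, strand -): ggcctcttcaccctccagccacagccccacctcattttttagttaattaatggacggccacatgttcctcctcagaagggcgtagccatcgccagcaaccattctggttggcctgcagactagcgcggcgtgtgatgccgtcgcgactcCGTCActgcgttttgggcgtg
The motif was found in these stretches of Pdhb and Pdha1, near the start site, and not in the other 6. Dld held it outside the printed stretch, past the start site. RefSeq promoter windows of 300 bases were found for 28 of the 30 genes (37 windows). At least 1 window of 12 genes held TGACG, among them Dld, Ldha, Dlat, Fh1, Mdh2, Ogdh, Sucla2 and Suclg1, and 45.9% of the 37 windows did so against 20.8% of all 32851 windows. The windows of the 30 genes had a higher median GC content than all windows (62.0% against 52.67%). By cold response in control mice, this motif was found in 4 of 10 genes that rose, 1 of 7 that fell and 7 of 11 that did not pass the test. The ERR motif AAGGTCA occurred only in Ogdh among the 28 (2.70% of the 37 windows, 4.72% of all windows). CCGGAAG, the core of the ETS and GABP site, occurred in 5 genes (13.5% of the 37 windows, 8.86% of all windows). None of these 5 rose or fell in control mice, while Dlst, Idh3b, Idh3g and Mpc1 rose in mice labelled FAKO and Glud1 did not pass. Of all 11 genes that did not pass in control mice, 8 rose in mice labelled FAKO. The rises of Dlst, Idh3b, Idh3g and Mpc1 were lost under another scaling of the libraries, described further on. GCGCATG (NRF1) was in Glud1 and Ogdh (8.11% of the 37 windows, 3.91% of all windows). CACGTG (E-box) was in Ldha, Ogdh and Pcx (13.5% and 7.15%), and AAGATGG (YY1) in Idh3g and Ldhb (5.41% and 6.34%). All were counted on both strands.

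The first comparison asked how 6 h of cold changed these transcripts in control mice. Of the 30 genes, 11 rose, 8 fell and 11 did not pass the threshold. This is close to the background, since 65.0% of all genes tested passed (31.6% higher and 33.4% lower). The median log2 fold change was 0.00 for the 30 genes and -0.01 for all genes, while single genes ranged from -1.22 to 0.98. Rises and falls occurred together within the dehydrogenase complex, both stretches of the cycle and the side entries, while 1 gene rose and none fell among the carriers and among the lactate dehydrogenases. In mice labelled FAKO, 19 genes rose, 4 fell and 7 did not pass, against a background of 68.6% (33.7% higher and 34.9% lower), with a median log2 fold change of 0.24 against -0.03 for all genes. All 11 genes that rose in control mice also rose in mice labelled FAKO, and 4 genes fell in both. Past the threshold in 1 genotype alone, 8 rose in mice labelled FAKO and 4 fell in control mice. Such a contrast of calls is not a test of the genotypes, which is given further on. The overlap of calls among all genes is not given here.

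**Figure D2:**
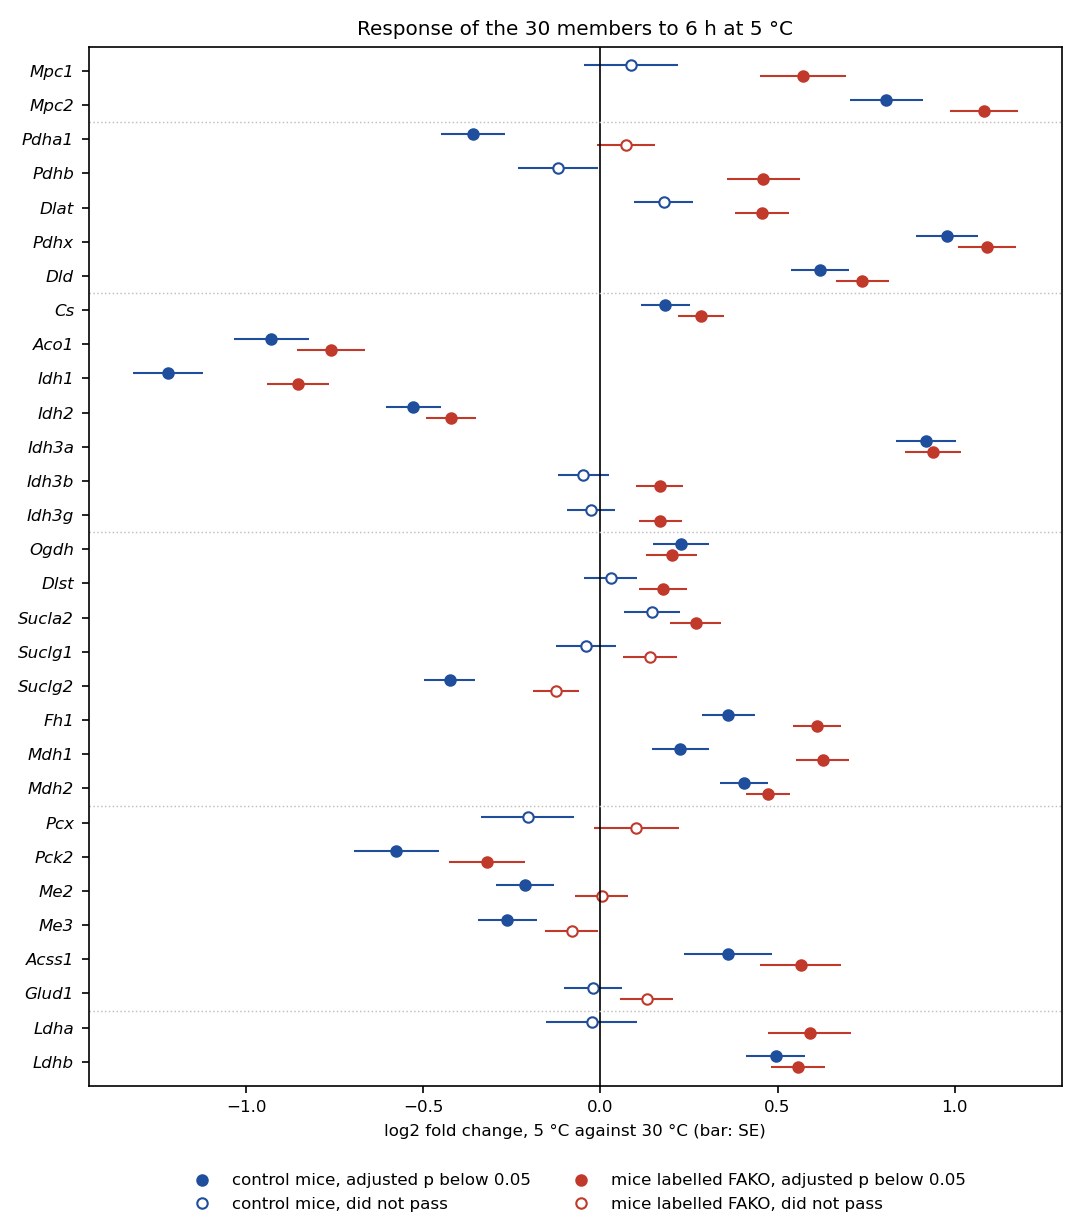
Log2 fold change (x axis) of each of the 30 genes after 6 h at 5 °C against 30 °C in control mice (blue) and mice labelled FAKO (red), with SE bars; filled points passed the threshold and dotted lines part the functional groups. Pdhx, Idh3a, Mpc2 and Dld lie farthest to the right and Idh1 and Aco1 farthest to the left in both genotypes.

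The split of the smaller changes moved with the scaling of the libraries. With library size alone in place of TMM factors, the median of all genes moved to -0.14 in control mice and -0.34 in FAKO mice. The medians of the genes described here were then -0.11 and -0.08. These genes divided into 8 that rose and 8 that fell in control mice and into 9 and 10 in mice labelled FAKO. With upper-quartile factors the division was 7 to 9 and 13 to 6. The medians of these genes were then -0.10 in control mice and 0.08 in mice labelled FAKO, against -0.12 and -0.18 for all genes. In mice labelled FAKO the median of these genes lay above that of all genes under each scaling. With TMM factors it was 0.24 against -0.03. Under library size alone the log2 fold change turned negative for Cs, Idh3b, Idh3g, Ogdh, Dlst and Sucla2 in mice labelled FAKO (-0.15 to -0.04), and none of these 6 then passed the threshold. In the same mice Suclg2 and Me3 passed as lower under both other scalings, and Pdha1, Suclg1, Me2 and Glud1 with library size alone. In control mice, Cs, Ogdh and Mdh1 lost their call under both other scalings and Acss1 under upper-quartile factors, under which Pcx passed as lower (-0.31). Without the 6 mice rich in muscle markers, 8 genes rose and 7 fell in control mice, and 17 rose and 3 fell in mice labelled FAKO. That fit kept 6 controls at 30 °C and 3 at 5 °C, and 7 and 4 mice with the FAKO label. Smaller groups alone can change the number of calls. The share of all genes called is not given here for that fit or for either other scaling. Their counts are therefore not set against a background.

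Other transcripts moved with cold as well. All 6 red blood cell markers rose in mice labelled FAKO (summed level 290 to 609.9 CPM at 30 °C and 518 to 1500 CPM at 5 °C) and none passed in control mice. The sum of 6 endothelial markers went from 423 to 557 CPM to 729 to 856 CPM in control mice, and from 486 to 629.6 CPM to 629.3 to 879.9 CPM in mice labelled FAKO, with 4 higher and 2 lower in each genotype. The sum of 6 nuclear-retained RNAs went without overlap from 8979 to 10600 CPM to 14850 to 16280 CPM in control mice, with 3 higher and 2 lower. In mice labelled FAKO it went from 10450 to 11810 CPM to 10350 to 13590 CPM, with overlap, 2 higher and 3 lower. Of the mitochondrially encoded genes, 2 of 7 tested were lower in control mice and 3 were higher in mice labelled FAKO. Their part in the counts of the 30 genes was not tested.

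Both subunits of the mitochondrial pyruvate carrier were measured, and Mpc2 (chromosome 1, 165460637 to 165481214 in mm10) responded more than Mpc1. In control mice at 30 °C, Mpc2 ranged from 134 to 197 CPM with a median of 165. The 5 control mice at 5 °C had 298, 285, 282, 303 and 290.5 CPM, all above every mouse at 30 °C. In mice labelled FAKO, Mpc2 ran from 121 to 175 CPM (median 137) at 30 °C and from 247 to 394 CPM (median 304) at 5 °C. The log2 fold change was 0.81 (SE 0.10) in control mice and 1.08 (SE 0.10) in mice labelled FAKO (edgeR quasi-likelihood test, Benjamini-Hochberg adjusted p = 1.08e-07 and 1.17e-10). Mpc1 changed by 0.09 (SE 0.13) in control mice, which did not pass the threshold, and rose by 0.57 (SE 0.12) in mice labelled FAKO, where the groups overlapped and the call was lost with library size alone. Measured within each mouse, the ratio of Mpc1 to Mpc2 per kilobase averaged 2.53 in control mice at 30 °C and 1.54 at 5 °C, and 2.60 and 1.80 in mice labelled FAKO. No mouse at 5 °C reached the lowest mouse of its genotype at 30 °C (exact two-sided permutation tests, adjusted p = 0.00631 for both genotypes).

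The pyruvate dehydrogenase complex showed different cold responses of its subunits. Pdhx, the protein that anchors the E3 subunit to the E2 core (chromosome 2, 103021075 to 103073513), ranged from 76.1 to 105 CPM (median 99.4) in control mice at 30 °C. At 5 °C the 5 control mice had 181, 176, 185, 187 and 214 CPM. Mice labelled FAKO went from 80.2 to 105 CPM (median 91.3) to 173 to 236 CPM (median 177). The groups at the 2 temperatures did not overlap in either genotype, and the fold change was 1.97 in control mice (log2 0.98, SE 0.09) and 2.13 in mice labelled FAKO (log2 1.09, SE 0.08), with Benjamini-Hochberg adjusted p = 2.24e-10 and 5.34e-12 in the edgeR quasi-likelihood test. Dld, the E3 subunit that the oxoglutarate dehydrogenase complex shares (chromosome 12, 31331277 to 31351453), rose by 0.62 (SE 0.08) and 0.74 (SE 0.07) on the log2 scale. Its lowest mouse at 5 °C in each genotype, at 824 and 786 CPM, was above the highest mouse at 30 °C, at 630.5 and 559 CPM.

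In control mice none of the E1 and E2 subunits of the complex passed as higher. In control mice Pdha1 fell by 0.36 (log2, SE 0.09) with no overlap, from 1215 to 1584 CPM at 30 °C to 995.6 to 1194 CPM at 5 °C, while in mice labelled FAKO its change was 0.07 (SE 0.08). Pdhb, the beta subunit of E1, changed by -0.12 (SE 0.11) in control mice and rose by 0.46 (SE 0.10) in mice labelled FAKO. The E2 core subunit Dlat changed by 0.18 (SE 0.08) in control mice, where the adjusted p was 0.0636 (edgeR quasi-likelihood test with Benjamini-Hochberg), and passed without control mouse 4 (0.21) or 6 (0.23) at 30 °C. Its rise in mice labelled FAKO was 0.46 (SE 0.08). The rises of Pdhb and Dlat in those mice were lost with library size alone. Within mice, the ratio of Dlat to Pdhx per kilobase fell from a mean of 3.88 to 2.24 in control mice and from 3.64 to 2.34 in mice labelled FAKO, again with no overlap (exact two-sided permutation tests, adjusted p = 0.00631 for both). The ratio of Pdha1 to Pdhb fell in mice labelled FAKO, from 3.69 to 2.81 (exact permutation test, adjusted p = 0.00631), and in control mice from 3.30 to 2.76 without passing (exact permutation test, adjusted p = 0.131).

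**Figure D3:**
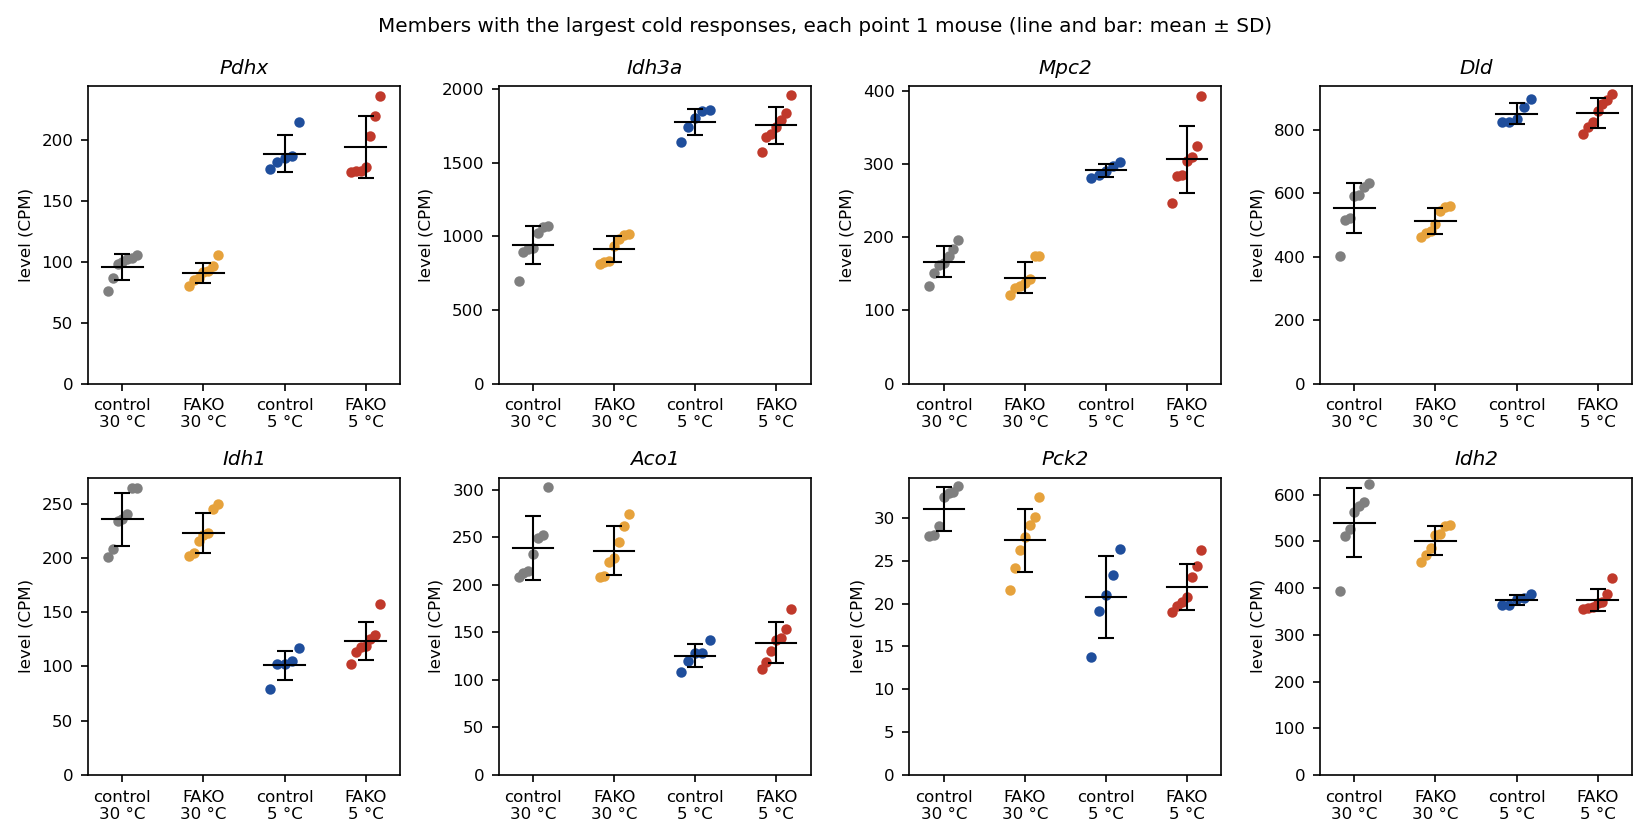
Level in CPM (y axis, from 0) of the 4 genes with the largest rises and the 4 with the largest falls under cold, by group, each point 1 mouse and lines the mean with bars of ± SD. Pdhx, Idh3a, Mpc2, Dld, Idh1, Aco1 and Idh2 separate the temperatures without overlap in both genotypes, and Pck2 overlaps in mice labelled FAKO.

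From citrate to oxoglutarate the isocitrate dehydrogenases moved apart. Idh3a, the catalytic subunit of the NAD-dependent enzyme of the cycle (chromosome 9, 54586334 to 54604661), ran from 700.1 to 1073 CPM (median 922) in control mice at 30 °C, while 5 °C gave 1804, 1856, 1850.0, 1741 and 1641 CPM in the 5 controls. Mice labelled FAKO had from 813 to 1015 CPM (median 932) at 30 °C and from 1574 to 1959 CPM (median 1740) at 5 °C. All mice at 5 °C were above all at 30 °C, and the log2 fold changes were 0.92 (SE 0.09) and 0.94 (SE 0.08), with Benjamini-Hochberg adjusted p = 4.15e-10 and 5.58e-11 in the edgeR quasi-likelihood test. The regulatory subunits Idh3b and Idh3g changed by -0.05 (SE 0.07) and -0.03 (SE 0.07) in control mice, and by 0.17 (SE 0.07) and 0.17 (SE 0.06) in mice labelled FAKO. Their ratio to each other per kilobase stayed between group means of 1.15 and 1.17.

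The NADP-dependent enzymes fell. Idh1, the cytosolic form (chromosome 1, 65158616 to 65186500), went in control mice from 201 to 265 CPM (median 236) to 105, 79.4, 102.3, 102 and 117 CPM, a fold of 0.429. Mice labelled FAKO went from 202 to 249 CPM (median 221) to 102 to 158 CPM (median 118), a fold of 0.554. The log2 fold changes were -1.22 (SE 0.10) and -0.85 (SE 0.09), the largest falls among the 30 genes, with no overlap (edgeR quasi-likelihood test, Benjamini-Hochberg adjusted p = 3.08e-11 and 2.38e-09). Idh2, the mitochondrial form (chromosome 7, 80094846 to 80115392), fell by 0.53 (SE 0.08) and 0.42 (SE 0.07) on the log2 scale. Control mice had 393 to 623 CPM (median 563) at 30 °C and 378, 388, 365, 363 and 377 CPM at 5 °C, also without overlap.

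Relative to Idh3a, Idh2 changed more than any other pair compared. The ratio of Idh2 to Idh3a per kilobase averaged 1.12 in control mice at 30 °C, all between 1.06 and 1.20, and 0.413 at 5 °C (0.386 to 0.450). For mice labelled FAKO it was 1.08 (0.884 to 1.29) and 0.418 (0.360 to 0.525). The differences were -1.45 and -1.36 on the log2 scale (exact two-sided permutation tests, p = 0.00126 and 0.000583, the smallest these group sizes allow, adjusted p = 0.00631 for both). The ratio of Idh2 to Idh1 rose by 0.71 and 0.44 (exact permutation tests, adjusted p = 0.00631 and 0.00807).

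Aco1, the cytosolic aconitase that also serves as an iron regulatory protein (chromosome 4, 40143081 to 40198338), fell on the log2 scale by 0.93 (SE 0.11) in controls and 0.76 (SE 0.10) in mice labelled FAKO. Control mice had 208 to 303 CPM (median 233) at 30 °C and 128.3, 109, 142, 128.4 and 119.9 CPM at 5 °C, and mice labelled FAKO had 208 to 275 CPM (median 228) and 111 to 175 CPM (median 142). Neither genotype overlapped between temperatures. Cs, the citrate synthase at the entry of the cycle, rose by 0.18 (SE 0.07) and 0.28 (SE 0.06), subject to the scaling described above.

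Of the 8 genes listed here between oxoglutarate and oxaloacetate, 4 rose and 1 fell in control mice, and 6 rose in mice labelled FAKO. This was 62.5% and 75% of them, against 65.0% and 68.6% of all genes. Succinate dehydrogenase, a step of this stretch, was counted among the other pathway genes further on. In control mice Sdhc passed as lower (-0.18), and Sdha, Sdhb and Sdhd did not pass. In mice labelled FAKO Sdhb (0.16) and Sdhd (0.33) passed as higher, and Sdha and Sdhc did not pass. Fh1, the fumarase, rose by 0.36 (SE 0.07) and 0.61 (SE 0.07) on the log2 scale, and Mdh2, the mitochondrial malate dehydrogenase, by 0.41 (SE 0.07) and 0.47 (SE 0.06), each without overlap and under all 3 scalings. Fh1 was even among the 5 control mice at 5 °C, from 635 to 662 CPM. Mdh1, the cytosolic malate dehydrogenase (chromosome 11, 21556787 to 21572367), rose by 0.23 (SE 0.08) in control mice and by 0.63 (SE 0.07) in mice labelled FAKO. Suclg2 fell in control mice by 0.43 (SE 0.07), from 77.4 to 91.2 CPM at 30 °C to 57.7 to 69.7 CPM at 5 °C, and changed by -0.12 (SE 0.06) in mice labelled FAKO. The ratio of Sucla2 to Suclg2 per kilobase rose from a mean of 17.6 to 26.4 in control mice and from 18.5 to 24.3 in mice labelled FAKO (exact permutation tests, adjusted p = 0.00631 for both). Ogdh rose against Dlst, its E2 partner, by 0.20 (log2) in control mice (exact permutation test, adjusted p = 0.00631) and changed by 0.03 in mice labelled FAKO (exact permutation test, adjusted p = 0.809).

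Among the enzymes that fill or drain the cycle, 1 rose and 3 fell of 6 in control mice, and 1 rose and 1 fell in mice labelled FAKO. This was 66.7% and 33.3% of them, against 65.0% and 68.6% of all genes. Pck2 (chromosome 14, 55540266 to 55551242) had 27.9 to 33.7 CPM (median 32.5) in control mice at 30 °C, and 23.4, 13.8, 26.4, 19.1 and 21.0 CPM in those at 5 °C, a fall of 0.58 on the log2 scale (SE 0.12) with no overlap. In mice labelled FAKO it fell by 0.32 (SE 0.11) with overlapping groups, a call that was lost without the mice rich in muscle markers (-0.22, edgeR quasi-likelihood test, Benjamini-Hochberg adjusted p = 0.142). Me2 and Me3 fell by 0.21 (SE 0.08) and 0.26 (SE 0.08) in control mice. Acss1, which makes acetyl-CoA from acetate in the mitochondrion, rose by 0.36 (SE 0.12) and 0.57 (SE 0.11). Pcx, the pyruvate carboxylase that forms oxaloacetate, did not pass in either genotype (-0.21 and 0.10), and its highest value, 984 CPM, was in control mouse 7 at 30 °C. Without that mouse, the ratio of Pcx to Pdha1 rose with cold in control mice by 0.34 on the log2 scale (exact permutation test, adjusted p = 0.0173), against 0.19 with it (exact permutation test, adjusted p = 0.637). Glud1, the glutamate dehydrogenase, changed by -0.02 (SE 0.08) and 0.13 (SE 0.07).

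Of the lactate dehydrogenase subunits, Ldhb (chromosome 6, 142490249 to 142507957) rose in both genotypes. Control mice had 229 to 342 CPM (median 302) at 30 °C and 436.5, 431, 424, 398 and 410.4 CPM at 5 °C, and mice labelled FAKO had 257 to 310.3 CPM (median 276) and 329 to 435 CPM (median 424). The log2 fold changes were 0.50 (SE 0.08) and 0.56 (SE 0.08), with no overlap. Ldha (chromosome 7, 46841475 to 46855627) changed by -0.02 (SE 0.13) in control mice, from 529.9 to 807 CPM (median 598) to 573, 614, 587.5, 722 and 699.5 CPM. In mice labelled FAKO it rose by 0.59 (SE 0.12), from 460.5 to 651 CPM (median 570.3) to 605 to 1015 CPM (median 882), with overlapping groups, and this call was lost with library size alone (0.25).

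**Figure D4:**
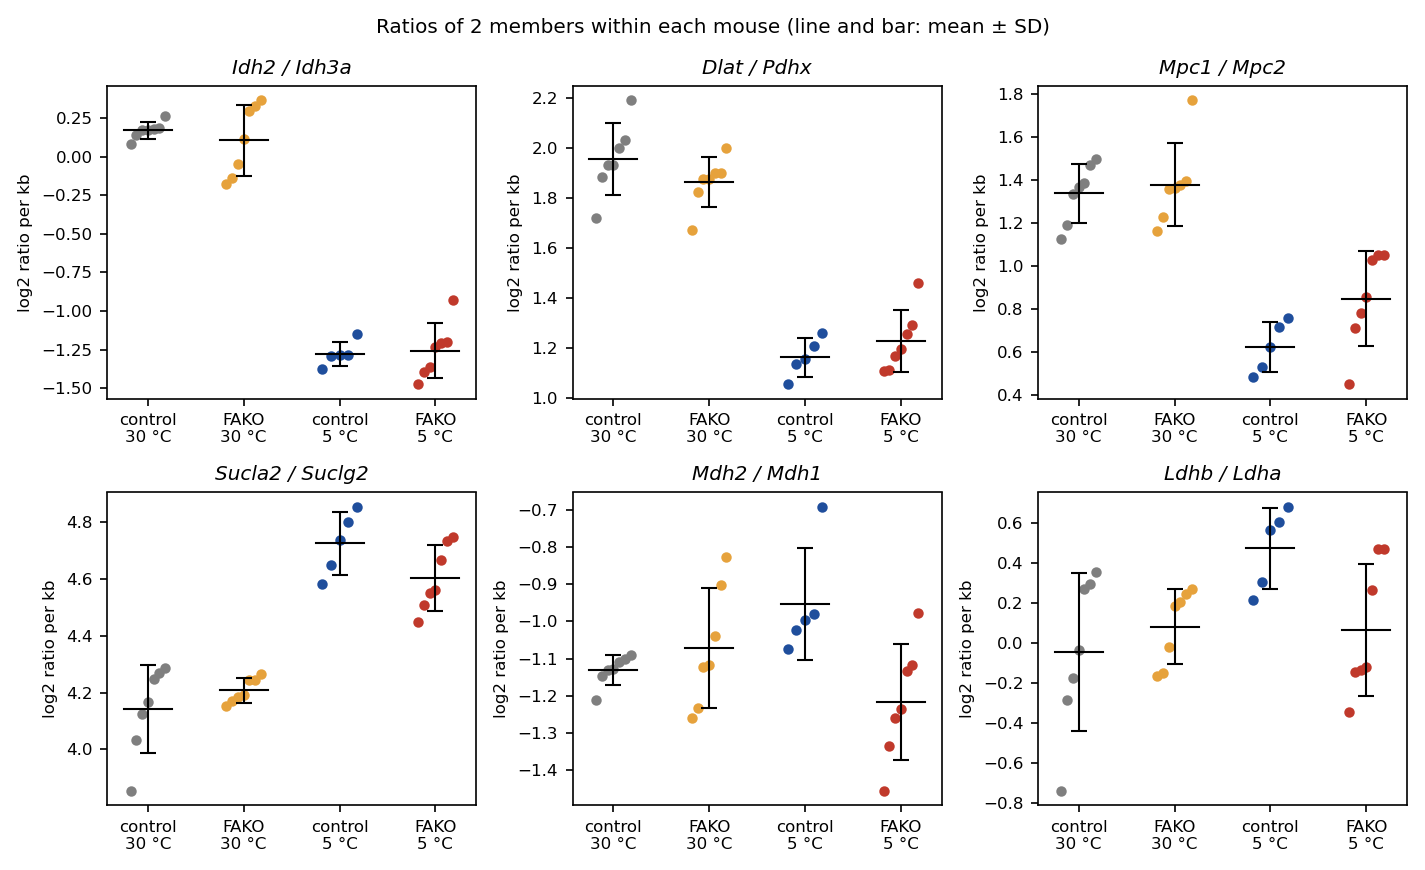
Log2 ratio of counts per kilobase of 2 genes within each mouse (y axis) for 6 pairs, by group, with points for mice and the mean ± SD. Idh2 to Idh3a, Dlat to Pdhx and Mpc1 to Mpc2 lie lower and Sucla2 to Suclg2 higher in every mouse at 5 °C than in any at 30 °C of the same genotype, while Ldhb to Ldha overlaps.

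Over all 12 ratios and 5 comparisons, 22 of 60 exact permutation tests had an unadjusted p below 0.05 and 14 passed after Benjamini-Hochberg adjustment, 7 for cold in control mice, 6 for cold in mice labelled FAKO and 1 for the difference between them. The pairs were chosen with earlier results of these data known, which the adjustment does not cover. The share of other gene pairs that would pass was not computed, so these counts are not set against a background. A ratio within a library does not depend on how libraries are scaled. With medians in place of means, all 14 had an adjusted p between 0.0631 and 0.127 in the exact permutation tests and the same sign.

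Counting groups that did not overlap at all, 13 of the 30 genes separated the temperatures in control mice (7 higher and 6 lower, where 46.4% of all genes tested did so, 23.5% higher and 22.9% lower) and 15 in mice labelled FAKO (12 higher and 3 lower, against 40.4% of all genes, 21.1% higher and 19.3% lower). A further 38 genes of the same pathways, among them the regulators of pyruvate dehydrogenase, the citrate and malate carriers, aconitase 2, succinate dehydrogenase and the transaminases, were counted in the same fit. In control mice 7 of them rose and 17 fell, and in mice labelled FAKO 13 rose and 11 fell. This was 63.2% of the 38 in each genotype, near the 65.0% and 68.6% of all genes. The largest rises in control mice were of Got1, the cytosolic aspartate aminotransferase (3.50, SE 0.13), Pdk4, a kinase that inactivates pyruvate dehydrogenase (1.89, SE 0.31), and Pdp2, a phosphatase that activates it (1.79, SE 0.14). The largest falls were of Acly, which splits citrate in the cytosol for fat synthesis (-2.78, SE 0.32), Acss2, the cytosolic acetyl-CoA synthetase (-1.63, SE 0.20), and Slc25a1, the citrate carrier (-1.60, SE 0.30), all on the log2 scale.

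The next comparison asked whether mice labelled FAKO differed from control mice at the same temperature. At 30 °C none of the 30 genes passed the threshold in edgeR or DESeq2, where the background was 0.0810% (14 genes). All 30 log2 fold changes were negative, from -0.34 to -0.02 with a median of -0.11, against 55.9% of all genes and a median of -0.02. This direction depended on the scaling: with library size alone the median of all genes moved to 0.13 and 20 of the 30 were positive (median 0.05), and with upper-quartile factors 1 was positive. An unadjusted p below 0.05 was found for 7 of the 30, all lower, against 7.65% of all genes (3.84% higher and 3.81% lower). Every one of the 30 overlapped between the genotypes, where 0.249% of all genes did not.

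Pdhb had the smallest p at 30 °C. Control mice ranged from 354 to 594 CPM with a median of 422 and mice labelled FAKO from 292 to 407 CPM with a median of 344, a log2 fold change of -0.34 (SE 0.10, edgeR quasi-likelihood test, Benjamini-Hochberg adjusted p = 0.343). Mdh1 went from 552 to 697 CPM (median 620.2) in control mice to 499 to 610.4 CPM (median 543) in mice labelled FAKO, a difference of -0.18 (SE 0.07). Dlat differed by -0.17 (SE 0.08). None of the 12 ratios within mice had an unadjusted p below 0.05 at this temperature. The largest differences were those of Pdha1 to Pdhb (0.16 on the log2 scale, exact permutation test, adjusted p = 0.347) and Ldhb to Ldha (0.13, exact permutation test, adjusted p = 0.680).

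**Figure D5:**
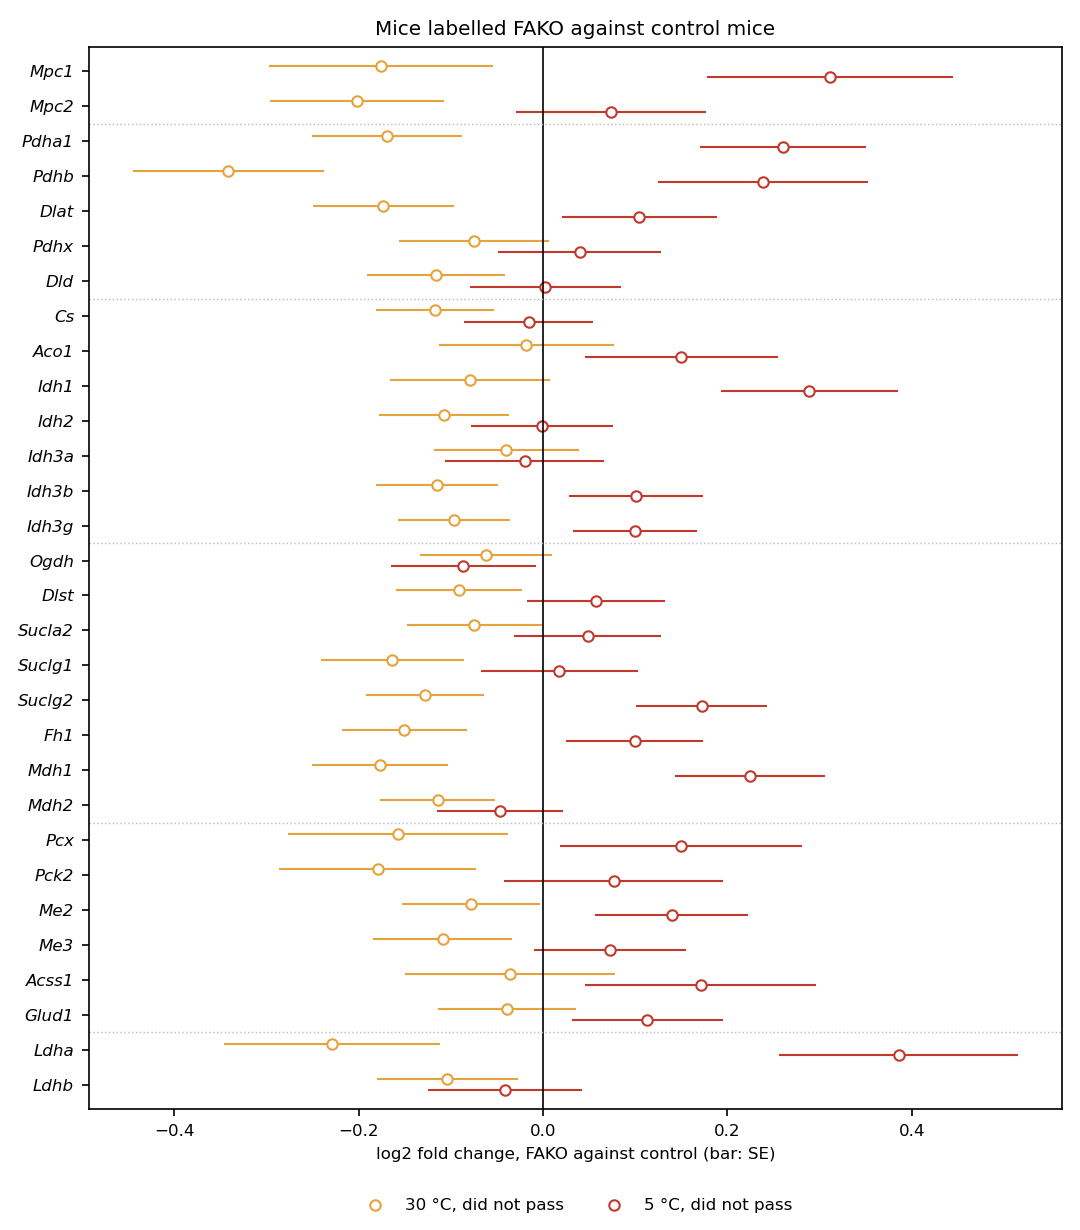
Log2 fold change of each of the 30 genes in mice labelled FAKO against control mice at 30 °C (orange) and 5 °C (red), with SE bars. All points are open since none passed the threshold; all 30 lie left of 0 at 30 °C and 24 lie right of it at 5 °C with TMM scaling.

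At 5 °C none of the 30 passed either, in edgeR or in DESeq2 (background 0.139%, 24 genes). The log2 fold changes ran from -0.09 to 0.39, 24 were positive (54.8% of all genes) and the median was 0.10 against 0.02 for all genes. With library size alone and with upper-quartile factors 22 were positive. For 7 of the 30 the unadjusted p was below 0.05, all higher, against 13.4% of all genes (7.47% higher and 5.96% lower). All 30 overlapped between the genotypes, where 1.11% of all genes did not. Idh1 had the smallest p, at 79.4 to 117 CPM (median 102.3) in control mice and 102 to 158 CPM (median 118) in mice labelled FAKO, a log2 fold change of 0.29 (SE 0.10, edgeR quasi-likelihood test, Benjamini-Hochberg adjusted p = 0.192). Ldha differed by 0.39 (SE 0.13) and Pdha1 by 0.26 (SE 0.09), with overlapping groups.

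Of the ratios at 5 °C, Mdh2 to Mdh1 had the smallest p and was lower in mice labelled FAKO by 0.26 on the log2 scale (exact permutation test, p = 0.0126, adjusted p = 0.0505). Ldhb to Ldha was lower by 0.41 (1.05 against 1.39 per kilobase, exact permutation test, p = 0.0429, adjusted p = 0.127) and Idh2 to Idh1 by 0.29 (3.26 against 4.00, exact permutation test, p = 0.0177, adjusted p = 0.0663). Without mouse 22 labelled FAKO, the ratios of Idh2 to Idh1 (-0.33), Mdh2 to Mdh1 (-0.30) and Mpc1 to Mpc2 (0.29) passed after adjustment (exact permutation tests, adjusted p = 0.0162, 0.0162 and 0.0458). The summed level of the nuclear-retained RNAs overlapped between the genotypes at 30 °C and did not at 5 °C. It was 8979 to 10600 CPM in controls against 10450 to 11810 CPM in FAKO mice at 30 °C, and 14850 to 16280 CPM against 10350 to 13590 CPM at 5 °C. Of the 6, none passed the threshold at 30 °C and 1 was lower at 5 °C. For the difference of the cold responses, the comparison described next, 2 of the 6 were lower. The part of these RNAs in the differences of the 30 genes was not tested.

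The last comparison asked whether the cold responses of the genotypes differed, as the change in mice labelled FAKO less the change in control mice. None of the 30 genes passed in edgeR (background 1.16%, 200 genes), while 29 of the differences were positive (56.7% of all genes), with a median of 0.20 against 0.04 for all genes. With library size alone, 14 were positive and the medians were -0.0037 for the 30 genes and -0.15 for all genes. An unadjusted p below 0.05 was found for 11 genes, all positive, against 16.2% of all genes (9.12% positive and 7.10% negative). The 3 with the smallest p were Pdhb, with a difference of 0.58 (SE 0.15), Mdh1, with 0.40 (SE 0.11), and Pdha1, with 0.43 (SE 0.12), at Benjamini-Hochberg adjusted p = 0.0575, 0.0666 and 0.0743 in the edgeR quasi-likelihood test. With DESeq2, 5 of the 30 passed (Pdha1, Pdhb, Suclg2, Mdh1 and Ldha, background 3.27%), all positive.

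Single mice moved these calls. Without mouse 22 labelled FAKO at 5 °C, 4 of the 30 passed in edgeR (Pdhb, Mdh1, Pdha1 and Ldha), where 302 genes (1.75% of all tested) did so. Without control mouse 7 at 30 °C, 2 passed (Mdh1 and Pdha1), with 371 genes (2.16%) in all. Without control mouse 3 or 5 at 30 °C, or mouse 27 labelled FAKO, 1 passed, with 150, 149 and 186 genes in all (0.863% to 1.08%). The levels behind Pdhb were a fall of its median in control mice from 422 to 400.2 CPM, and a rise in mice labelled FAKO from 344 to 471 CPM. For Mdh1 the medians went from 620.2 to 740.4 CPM in control mice and from 543 to 855 CPM in mice labelled FAKO. Pdha1 went from a median of 1457 to 1076 CPM in control mice and from 1195 to 1299 CPM in mice labelled FAKO.

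The ratio of Mdh2 to Mdh1, the mitochondrial to the cytosolic malate dehydrogenase, was the only 1 of 12 that passed for the difference of the cold responses after adjustment. The test permutes genotype within temperature and is exact only where the genotypes do not differ at either temperature. In control mice it rose from a mean of 0.457 (0.432 to 0.4701) at 30 °C to 0.517 at 5 °C (0.475 to 0.619), and in mice labelled FAKO it went from 0.476 (0.418 to 0.564) to 0.4304 (0.365 to 0.508). The difference was -0.32 on the log2 scale (exact permutation test of genotype within temperature, p = 0.00896, adjusted p = 0.0384). It held its sign without each mouse in turn, and its adjusted p exceeded the threshold without any of 12 single mice (highest 0.102, without control mouse 17). Ldhb to Ldha had the larger difference of -0.54 but did not pass (exact permutation test, p = 0.0361, adjusted p = 0.120). Of the other 38 pathway genes, Pdk1, a further pyruvate dehydrogenase kinase, and Pkm, the pyruvate kinase, passed for this difference (0.90 and 0.51, edgeR quasi-likelihood test, Benjamini-Hochberg adjusted p = 0.033 and 0.0408), and were named for having done so.

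The genomic positions given are those of mm10, the build the authors aligned to. Pdha1, Idh3b, Sucla2, Fh1, Mdh1, Pcx, Mpc1, Me3 and Acss1 each overlap the span of a gene on the opposite strand, such as Map3k15 for Pdha1 and Nop56 for Idh3b. Mpc2, Cs, Idh2, Mdh1 and Me3 overlap the span of a gene on the same strand. Whole spans were compared, introns included, and overlap of exons was not checked. The strand setting of the counting is not given in the sources used here. Whether part of the counts came from a partner is therefore not known.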

How the data were processed

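RNA from BAT of 26 mice was sequenced as stranded, rRNA-depleted total RNA. The authors aligned reads to mm10 with STAR 2.5.2b, counted them per gene (GENCODE, an earlier release than the one used here) with featureCounts 1.5.2 and deposited counts without normalization. All columns were used, and mice were grouped by their labels. Replicates are separate mice.

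Of 50686 genes, 50376 matched a symbol in GENCODE M21, and 17286 passed filterByExpr by group. The tests were made in R 4.3.3 with edgeR 4.0.16 (legacy quasi-likelihood, TMM, 1 term for each of the 4 groups, as in the authors' edgeR 3.22.0), adjusted by Benjamini-Hochberg over all genes at 0.05. CPM used TMM-scaled totals, and RPKM divided them by exon length. Ratios of counts per kilobase within mice, given as geometric means, were compared by exact two-sided permutation tests, adjusted over 60 tests. Promoters came from RefSeq (GRCm38.p6). The steps were tested on simulated data.

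The 30 genes, the other lists and the pairs were chosen with earlier results of these data known. Named in full were, for cold, the 4 largest changes in each direction among genes past the threshold. For the other comparisons they were the 3 genes with the smallest p where none passed, with the 2 ratios that changed most in each. Other genes and ratios were described by role, and those in the last paragraphs on single mice after their values were seen. Alternatives were DESeq2 1.42.0, other scalings, filters and spread estimates, only the groups compared, medians of ratios, and leaving out each mouse in turn. Leaving out the 6 mice rich in muscle markers was added after seeing the data.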

Additional observations from a re-analysis of the deposited data

Results flagged for a closer look

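Within each group of mice the highest and lowest value of each of the 30 genes was compared with the rest of its group, and 8 of 120 such checks found a mouse set apart, where chance gives about 1 in 20. Mouse 28 labelled FAKO at 5 °C had 230.8 CPM of Mpc1. Control mouse 21 at 5 °C had 214 CPM of Pdhx. Mouse 24 labelled FAKO at 5 °C had 2194 CPM of Cs and 720.7 CPM of Suclg1. Control mouse 7 at 30 °C, which also had the highest fibroblast markers, had 984 CPM of Pcx. Mouse 27 labelled FAKO at 5 °C had the highest Me2 (11.9 CPM) and the lowest Ldhb (329 CPM) of its group. Mouse 14 labelled FAKO at 30 °C had 79.7 CPM of Me3. The difference of the cold responses of the ratio of Mdh2 to Mdh1 was -0.32 on the log2 scale and passed in the permutation test of genotype within temperature.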

How the results depend on the processing

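No paired analysis was possible because the labels give every mouse a number of its own and no number is shared between groups. The 8 genes named for the largest cold responses kept their direction under every alternative, and their call under all but 1, Pck2 in mice labelled FAKO without the muscle-rich mice. For cold in control mice the genes that rose went from 11 to 7 with upper-quartile factors, and in mice labelled FAKO from 19 to 9, and those that fell from 4 to 10, with library size alone. Leaving out each mouse in turn gave 17 to 20 genes called in control mice and 20 to 23 in mice labelled FAKO, and none of the 30 for either comparison of the genotypes. For cold, the share of all genes called in these fits is not given here.

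Over all genes, calls between genotypes at 30 °C went from 14 to 34 (library size alone), 9 (no filter), 48 (DESeq2), 88 (without the muscle-rich mice) and 7 to 93 (without each mouse, 93 without control mouse 7). At 5 °C they went from 24 to 5 (library size alone), 15 (no filter), 45 (at least 10 counts in every mouse), 197 (DESeq2), 9 (only the groups compared) and 7 to 100 (without each mouse, 100 without mouse 22 labelled FAKO). For the difference of the cold responses they went from 200 to 27 (no filter), 488 (DESeq2) and 49 to 371 (without each mouse, 371 without control mouse 7 and 49 without mouse 8 labelled FAKO), and of the 30 genes 5 were called, all higher, with DESeq2 and 0 to 4 without each mouse.

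With library size alone 20 of the 30 genes were positive at 30 °C, against 0, and 14 for the difference of the cold responses, against 29. Among the genes named by rule in each comparison, the sign turned for Ldhb at 30 °C (0.0545 against -0.10) and for Ldhb (-0.14) and Mdh2 (-0.13) in the difference of the cold responses with library size alone. Idh2 at 5 °C was near 0 and turned with no filter (0.0109), DESeq2 (0.0132), without the muscle-rich mice (0.0456) and without any of 7 single mice (range over all mice -0.0317 to 0.0126), and Ldhb at 5 °C turned without mouse 27 labelled FAKO (-0.0601 to 0.0049). The cause of these shifts was not tested. With 5 control mice at 5 °C, the exact permutation tests cannot go below p = 0.00126.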
